A study of Mus musculus with 60 samples.

Results

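The genes described here separated the 3 major salivary glands of the mouse from the liver in the same direction. RNA of the parotid, submandibular and sublingual glands was compared with liver RNA of the same animals. A gene was kept when its mean level differed from that in liver at least 4-fold, in 1 direction, in all 3 glands. Of 41079 genes in the count table, 7744 met this rule, 5178 of them higher in the glands and 2566 higher in liver. The rule used the mean levels in these libraries, so the gland to liver ratios of the members describe how they were chosen and are given with no test.

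The libraries came from 11 mice, each of which gave 1 library of parotid, submandibular, sublingual and liver, 44 in all. The mice were 3 males and 3 females of CD1, an outbred stock, and 2 males and 3 females of C57, an inbred strain; the labels give no age, treatment or genotype beyond strain and sex. The series holds 60 libraries of 5 tissues from 12 mice. The rule left out C57 male 2, whose 4 libraries are described apart, and pancreas libraries served as a further comparison.

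Salivary glands make saliva in acini and modify it in ducts. Nerve signals raise calcium in acinar cells, which opens chloride and potassium channels, and sodium and water follow the chloride into the lumen. Acinar cells also store and release proteins: the parotid is a serous gland, the sublingual gland is rich in mucous cells, and the submandibular gland of rodents adds granular ducts that differ between the sexes. Hepatocytes of the liver secrete most plasma proteins into the blood, make bile acids and urea, and hold the enzymes that clear drugs and steroids.

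Total counts per library were 39.2 to 66.6 M in parotid, 29.9 to 51.2 M in submandibular and 33.8 to 50 M in sublingual libraries, against 37.2 to 51.4 M in liver. Levels are CPM, the counts of a gene per M (mega) counts of its library, after scaling by the trimmed mean of M-values (TMM), which is meant to keep a few very abundant transcripts from setting the level of all others. The summed level of 8 hepatocyte markers was 83000 to 160000 CPM in liver and 154 to 1270 CPM in the gland libraries. The sum of 8 salivary acinar markers was 127000 to 586000 CPM in parotid and 1670 to 5840 CPM in liver. In submandibular and sublingual libraries it was 30500 to 90700 and 15700 to 31200 CPM. Bpifa2 made up nearly all of the parotid sum, at 126500 to 581900 CPM, and was 1116 to 5159 CPM in liver. Of the 8 acinar markers 3 met the rule. The library labelled parotid CD1 female 2 stood apart, with the lowest acinar sum of the 11 parotid libraries and the highest sums of B and plasma cell (2210 CPM), T and NK cell (844 CPM) and lymph node markers (1380 CPM); over the 11 parotid libraries these sums had medians of 503, 230 and 229 CPM and lowest values of 44.6, 5.9 and 5.98 CPM. The liver library of the same animal had the lowest hepatocyte sum. Adipocyte markers ran from 48.8 to 6260 CPM and skeletal muscle markers from 4.83 to 3300 CPM across the parotid libraries, while the pancreas acinar sum was 405 to 4760 CPM in the gland and liver libraries. No gene of the T and NK cell, lymph node, adipocyte, skeletal muscle or pancreas acinar lists met the rule.

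The members took very different shares of the RNA. Gland-high members held 3.02% to 4.04% of the counts in parotid, 4.35% to 8.02% in submandibular and 8.69% to 9.82% in sublingual, but 0.227% to 0.362% in liver. Liver-high members held 43.7% to 58% of the counts in liver, against 1.13% to 3.77% in parotid, 1.13% to 2.03% in submandibular and 2% to 2.93% in sublingual. What the 3 glands shared against liver was a small part of their RNA by count, and what liver had over them was a large part of its own. Most gland-high members were scarce: 2962 of the 5178 did not pass the filter on low counts, 1220 had a mean of at least 1 CPM in every gland, and 143 had at least 50 CPM in every gland. Of the 2566 liver-high members, 1004 did not pass that filter, 1572 had at least 1 CPM in liver and 876 at least 50 CPM. In liver 2306 gland-high members had no count in any library, so that any count in each gland let them meet the rule, and 347 liver-high members had no count in any gland library. When means of log2(CPM + 0.5) replaced mean CPM, which pulls the ratios of scarce genes towards 1, 782 gland-high and 1354 liver-high genes passed the rule.

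Calls across all genes used edgeR's quasi-likelihood test on counts, with the animal as a block, Benjamini-Hochberg adjustment over the 18574 genes that passed the filter, an adjusted p under 0.05 and a fitted difference of at least 4-fold. Of all genes tested, 20.8% were called higher in parotid, 16.5% in submandibular and 17.7% in sublingual than in liver, and 10.6%, 11.4% and 11.8% were called higher in liver. Among the 2216 gland-high members that passed the filter, 2168, 2149 and 2182 were called in the 3 glands in that order, and among the 1562 liver-high members 1554, 1554 and 1555; the rule used the same difference, so these counts only restate it. The 3 comparisons share the liver libraries. By mean CPM alone, 3986 tested genes were at least 4-fold higher in parotid than in liver, and 55.6% of them were shared by all 3 glands; the shared part was 70.3% of 3152 genes in submandibular and 67.3% of 3295 in sublingual. In the opposite direction 80.6% of 1938 genes for parotid, 73.9% of 2115 for submandibular and 70.6% of 2213 for sublingual were shared.

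The threshold cut through a continuous range of ratios. Just inside it among genes of at least 50 CPM in the higher tissue were Uaca, Txnip and Ahnak, with smallest gland to liver ratios of 4.09, 4.23 and 4.26, and just outside were Tagln2 and Smpdl3a, both under 4 before rounding, and Mylip (3.99). On the liver side Hadh, a mitochondrial fatty acid oxidation enzyme, was just inside at a smallest liver to gland ratio of 4, followed by Chchd10 at 4.02 and Erg28 at 4.05. Ninj1 and Etfb were just outside in parotid, and Gcat in submandibular, each at 0.251 of the liver mean.

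Genes of fluid secretion were well represented in the gland-high set. All gene lists were chosen with earlier results of these data known, so their shares are descriptions and test no pathway. Of 40 genes of fluid and ion transport, 17 were at least 4-fold higher in all 3 glands and 2 at least 4-fold higher in liver; for comparison, 11.9% of all genes tested were gland-high members and 8.41% liver-high members, against 42.5% and 5% of this list. Its median log2 difference from liver was 2.28 in parotid, 2.54 in submandibular and 2.03 in sublingual, where the medians over all genes tested were 0.21, 0.13 and 0.18. In the test, 21, 23 and 20 of the 40 were called higher in parotid, submandibular and sublingual and 4, 3 and 3 higher in liver. The shared genes covered successive steps of the response to acetylcholine. Chrm3, the muscarinic receptor through which acetylcholine drives fluid secretion, had a lowest, median and highest level of 7.13, 22.8 and 44 CPM in parotid, 19.3, 35 and 45.9 in submandibular and 30.6, 42 and 51.4 in sublingual libraries, against 0.529, 1.01 and 7.22 in liver. The highest liver library was just above the lowest parotid library, and the other glands did not overlap with liver. Itpr3, a receptor that releases calcium from the endoplasmic reticulum, was 46.7 to 96.7 CPM in parotid, 39.4 to 137 in submandibular and 41.1 to 69.6 in sublingual libraries, against 3.46 to 6.62 in liver, without overlap.

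The channels that calcium opens followed the same pattern. Kcnn4 on chromosome 7, a calcium-activated potassium channel, was 161, 584 and 931 CPM in parotid, 275, 438 and 828 in submandibular and 248, 299 and 371 in sublingual libraries, against 5.24, 9.59 and 16.6 in liver (lowest, median and highest of 11 libraries). The lowest gland library, the parotid of CD1 female 2, was far above the highest liver library. Mean Kcnn4 was 56.7-fold the liver mean in parotid, 48.9-fold in submandibular and 30.4-fold in sublingual. Ano1, the calcium-activated chloride channel of acinar cells, was 44.5, 184 and 242 CPM in parotid, 99.6, 147 and 183 in submandibular and 105, 119.9 and 130.1 in sublingual libraries, against 3.7, 4.93 and 7.18 in liver, again without overlap. Aqp5 on chromosome 15, the water channel of the acinar apical membrane, was 48.9, 188 and 360.3 CPM in parotid, 158, 321 and 834 in submandibular and 412, 483 and 604 in sublingual libraries, against 3.23, 8.24 and 10.4 in liver. All 33 gland libraries were above all 11 liver libraries for these 3 genes. Lrrc26, an auxiliary subunit of a further potassium channel, had means of 198, 256 and 418 CPM in parotid, submandibular and sublingual and 6.13 CPM in liver.

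**Figure D1:**
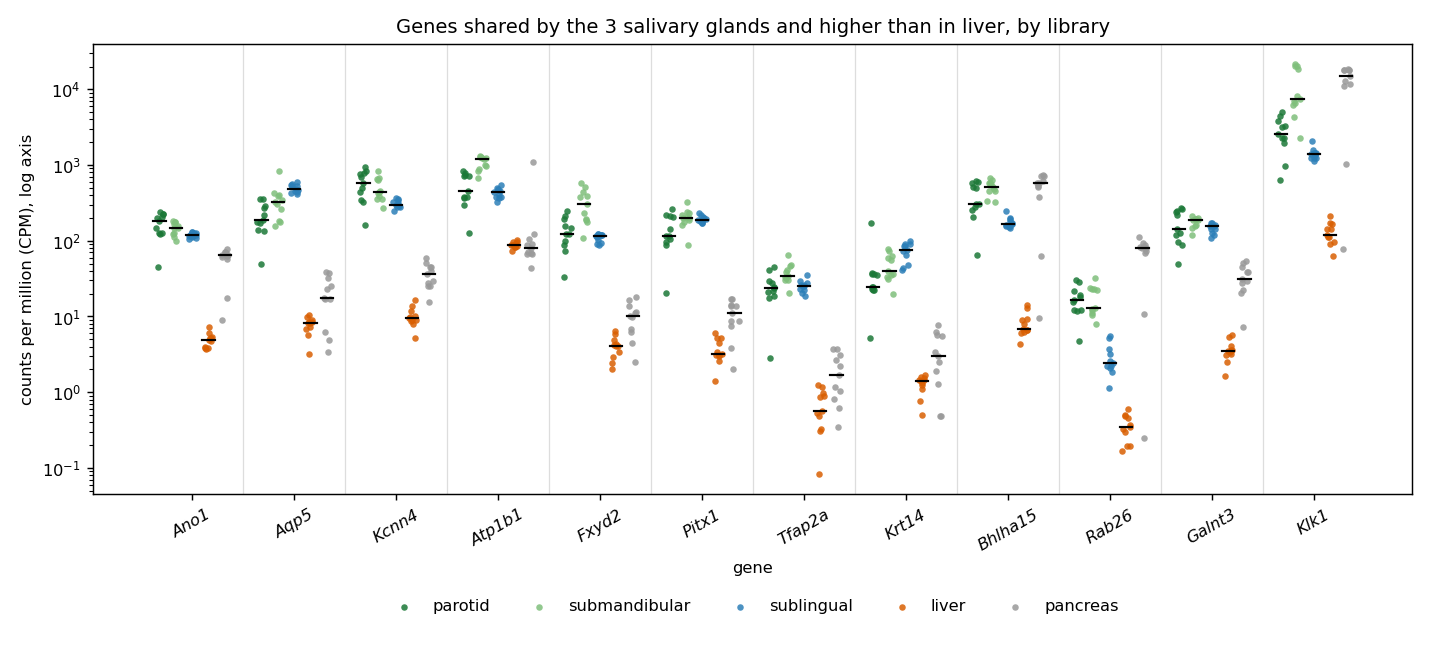
Levels of 12 gland-high members in each library, in CPM on a log axis, with 1 point per library, colours for the 5 tissues and a black bar at each median (11 libraries per tissue; values under 0.01 CPM are drawn at 0.01). The 33 gland points of Kcnn4 lie between 161 and 931 CPM, above the 11 liver points at 5.24 to 16.6 CPM, and the grey pancreas points differ in position from gene to gene.

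Pumps and ducts were represented too. Atp1b1, a subunit of the sodium pump, was 128, 449 and 834 CPM in parotid, 680.3, 1214 and 1303 in submandibular and 328, 436 and 538 in sublingual libraries, against 72.7, 88.9 and 102 in liver. Fxyd2, a small regulator of that pump, was 33.1, 123 and 247 CPM in parotid, 109.6, 310 and 579 in submandibular and 88.6, 116 and 122 in sublingual libraries, against 2, 4.11 and 6.5 in liver. Neither gene's gland libraries overlapped its liver libraries, and the smallest ratios were 4.85 and 26.8. Scnn1b, a subunit of the sodium channel through which ducts take sodium back from saliva, had means of 124 CPM in submandibular, 18.9 in parotid, 12 in sublingual and 0.801 in liver. Cftr, a chloride channel, also had its highest mean in submandibular, with 36, 6.11, 4.92 and 0.292 CPM in submandibular, sublingual, parotid and liver. Atp6v1b1, a proton pump subunit of acid-secreting cells, and Foxi1, the transcription factor of such cells, were scarce but shared, with smallest ratios of 28 and 14.7. The 2 transport genes that were higher in liver were P2ry2, a nucleotide receptor at 15.9 CPM in liver and 1.12 to 1.76 CPM in the glands, and the anion exchanger Slc26a4, whose liver mean was only 1.39 CPM. Slc26a4 was also in the list of duct markers, of which 5 of 8 were gland-high.

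Among the lists of gland genes, transcription factors of glands and other epithelia had the largest gland-high share. Of 44 genes 35 were gland-high and none was liver-high; 34 of these were among the 42 tested (81%). The list's median log2 differences were 3.74, 4.19 and 4.71 in parotid, submandibular and sublingual. Called higher than liver were 38, 36 and 39 of the 42 tested in that order, and none was called lower. Pitx1 on chromosome 13, a homeodomain factor of the oral region, was 20.5, 117 and 261 CPM in parotid, 88.6, 199.9 and 329.7 in submandibular and 171, 189 and 233 in sublingual libraries, against 1.39, 3.2 and 6.08 in liver; its smallest ratio of 38.9 was second only to that of Galnt3 among gland-high members of at least 50 CPM. Its lowest gland value was in the parotid of CD1 female 2, which still exceeded every liver library. Tfap2a, a factor of surface ectoderm, was 2.85, 24 and 45.1 CPM in parotid, 20.3, 34.6 and 65.4 in submandibular and 18.8, 25.1 and 35.7 in sublingual libraries, against 0.0835, 0.568 and 1.26 in liver, with a smallest ratio of 36.8 and no overlap between gland and liver libraries. Six2 had a smallest ratio of 36.2, at gland means of 24.8 to 41.2 CPM.

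Several of these factors were shared but far from equal in the 3 glands. Ehf, an ETS factor of epithelia, had means of 159 CPM in parotid, 325 in submandibular and 510 in sublingual, against 8.49 in liver. Spdef, a factor of mucous and goblet cells, had means of 26.9, 63.2 and 349 CPM in that order and 4.26 in liver. Pax9 had the opposite order, with 291 CPM in parotid, 44 in submandibular and 43.5 in sublingual, against 3.64 in liver. Sox10, known from neural crest and from salivary acini, was 146, 132 and 37.5 CPM in the glands and 1.87 CPM in liver. Elf5, Foxc1, Sox9, Tfcp2l1, Grhl1, Grhl2, Elf3 and Trp63 met the rule with smallest ratios of 21.5, 24.2, 7.24, 8.25, 11.2, 21.8, 9.29 and 28.1.

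The general secretory pathway was mostly not shared, though its gland-high share was above that of all genes tested. Of its 45 genes 9 were gland-high, 20.5% of the 44 tested against 11.9% of all genes tested. None was liver-high, against 8.41% of all. The list's median log2 differences were 0.05, 0.42 and 0.61 in parotid, submandibular and sublingual. In that order 10, 11 and 11 of the 44 were called higher in the gland against 1, 0 and 0 higher in liver. Of all genes tested, 20.8%, 16.5% and 17.7% were called higher in these glands. Bhlha15 on chromosome 5, the factor that matures secretory acinar cells, had the largest smallest ratio of the list (21.5). Its levels were 65.7, 309 and 608 CPM in parotid, 322, 511 and 664 in submandibular and 149.5, 166 and 245 in sublingual libraries, against 4.29, 6.76 and 14 in liver, with no overlap. Creb3l1, a transcription factor held in the endoplasmic reticulum membrane, had means of 110.1, 203 and 677 CPM and 9.49 CPM in liver. Kdelr3, which returns resident proteins to the endoplasmic reticulum, was 26.2 to 108 CPM against 1.98. The granule GTPases Rab3d and Rab26 were members with smallest ratios of 8.07 and 8.16, Rab26 at only 2.94 CPM in sublingual. Hspa5, the main chaperone of the endoplasmic reticulum, and Xbp1, a factor that enlarges it, were not members, at 661 and 299.5 CPM in liver against 281 to 639 and 382 to 707 CPM in the glands.

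Mucin-type O-glycosylation was shared for 5 of 30 genes, 16.7% of those tested against 11.9% of all genes tested. Of the 30, 12, 9 and 16 were called higher in parotid, submandibular and sublingual against 0, 1 and 1 higher in liver. Galnt3 on chromosome 2, an enzyme that attaches the first sugar of mucin chains, was the gland-high member of at least 50 CPM with the largest smallest ratio, 41. Its levels were 49, 143 and 269 CPM in parotid, 119.5, 189 and 211 in submandibular and 108, 157 and 173 in sublingual libraries, against 1.61, 3.45 and 5.68 in liver; gland and liver libraries did not overlap. B3galt5, a galactosyltransferase, was shared at 21.4, 29.7 and 172 CPM against 2.07. Fut2, which makes secreted fucosylated glycans, had a gland mean of only 1.39 to 1.58 CPM, and its gland and liver libraries overlapped. Gcnt1, an enzyme that branches the chains, was a member by its mean only: submandibular libraries ran from 0.855 to 392 CPM with a median of 3.17, and liver libraries from 0.711 to 5.56 CPM.

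Keratins and junction proteins of layered and ductal epithelia were gland-high for 24 of 41 genes and liver-high for none, with median log2 differences of 2.98, 4.47 and 3.94. Of the 41, 25, 26 and 28 were called higher in parotid, submandibular and sublingual and none lower. Krt14 on chromosome 11, a keratin of basal and myoepithelial cells, was 5.17, 24.5 and 170.2 CPM in parotid, 20.1, 40.4 and 79 in submandibular and 41, 75.6 and 100.3 in sublingual libraries, against 0.501, 1.4 and 1.68 in liver, and its partner Krt5 had a smallest ratio of 27.9. No gland library of Krt14 overlapped with the liver libraries. Epcam, an adhesion protein of simple epithelia, was 168 to 404 CPM in the glands and 8.73 in liver. Krt7, a duct keratin, was 72.2 to 179 CPM against 3.54, and the surface protease St14 was 87.1 to 128 against 3.4.

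Markers of cells other than the secretory epithelium met the rule as well. Of 10 myoepithelial markers 6 were gland-high, among them Acta2, smooth muscle actin, at 79, 222 and 544 CPM against 10.2. The summed level of this list was 103 to 551 CPM in parotid, 380 to 1210 in submandibular and 890 to 1780 in sublingual, against 114 to 271 in liver. Of 9 fibroblast markers 6 were gland-high; their sum was 649 to 2010, 345 to 898 and 280 to 882 CPM in the 3 glands and 122 to 316 CPM in liver. Of 8 Schwann cell markers 5 were gland-high, with sums of 64 to 270, 55.7 to 77.1 and 79.3 to 97.2 CPM against 5.56 to 13.4. Igha, the heavy chain of IgA, was the only 1 of 11 B and plasma cell markers that met the rule, at 39.3, 42.8 and 276 CPM against 9.33, with overlap. None of 8 endothelial markers was shared. In these tissue samples more cells of a type and more RNA per cell cannot be told apart.

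Signals of gland development gave 11 gland-high and 3 liver-high genes of 32. Of the 30 tested, 36.7% were gland-high and 6.67% liver-high, against 11.9% and 8.41% of all genes tested. In the test 13, 14 and 13 of the 30 were called higher in parotid, submandibular and sublingual against 4, 3 and 2 higher in liver. Fgf10 and Fgf7, growth factors that mesenchyme sends to branching epithelium, were 3.71 to 8.98 and 4.07 to 4.61 CPM in the glands and 0.205 and 0.244 CPM in liver. Lgr6, a receptor for R-spondins, and Edar, the ectodysplasin receptor, were members with smallest ratios of 19.9 and 14.2, both below 4 CPM in the gland means. The receptor tyrosine kinase Kit was 31.8 to 46.2 CPM against 6.5. On the liver side stood Egfr, the receptor for epidermal growth factor, at 7.59, 21.4 and 31.9 CPM in parotid, 14.3, 25.1 and 28.3 in submandibular and 15.9, 20.3 and 22.7 in sublingual libraries, against 249, 538 and 828 in liver. No gland library reached the lowest liver library, and the smallest liver to gland ratio was 25. Gfra1, a receptor subunit for GDNF, was 185 CPM in liver and 0.956 to 2.19 in the glands.

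Of 39 saliva protein genes that were counted, 4 were gland-high (3 of them among the 38 tested, 7.89%, against 11.9% of all genes tested) and 2 liver-high, while 36 of the 38 tested differed among the glands by the test given further on. Called higher than liver were 20, 15 and 14 in parotid, submandibular and sublingual, and 4, 5 and 2 were called lower. Klk1 on chromosome 7, tissue kallikrein, was the gland-high member with the highest level in its lowest gland, at 629, 2543 and 5034 CPM in parotid, 2288, 7378 and 21290 in submandibular and 1126, 1381 and 2090 in sublingual libraries, against 62.4, 118 and 209.5 in liver; it belongs to a family of near copies, so its reads may be shared with relatives. Wfdc12 and Wfdc18, small proteins of the whey acidic type, were 450.1 to 1238 and 89.3 to 1001 CPM in the glands and 24.2 and 11.8 CPM in liver, and the lowest parotid library of Wfdc12 (25.5 CPM) overlapped with liver. Muc5b met the rule at under 0.1 CPM in every gland mean. Parotid's Bpifa2 and Amy1, sublingual's Muc19 and submandibular's Egf fell outside: their ratios to liver were 125 in parotid for Bpifa2, 106 in parotid for Amy1, 95.8 in sublingual for Muc19 and 163 in submandibular for Egf, while another gland was at 1.06, 0.615, 0.928 and 1.62 times the liver mean. Those last ratios compare 2 levels that are each a small part of the level in the highest gland. Genes at least 20-fold above the other tissues in 1 gland were found in liver at 0.484% to 1.15% of that gland's level. The source of such counts was not tested. Amy1 has near copies and its level is uncertain. Egf was 21350 to 65810 CPM in submandibular libraries of males and 233.5 to 1259 CPM in those of females, so males set its submandibular mean. In liver Egf ran from 3.01 to 338 CPM and in parotid from 63.2 to 280 CPM, so these 2 tissues overlapped widely. Azgp1 and Clu, both also plasma proteins, were liver-high, at 1486 and 1718 CPM in liver and 14.6 to 62.8 and 47.7 to 201 CPM in the glands.

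The most abundant gland-high members outside these lists included genes of calcium handling and of the actin cytoskeleton. Atp2a3 on chromosome 11, a calcium pump of the endoplasmic reticulum, was 307, 669.9 and 1082 CPM in parotid, 1783, 2501 and 2918 in submandibular and 3111, 4068 and 4792 in sublingual libraries, against 30.4, 57.2 and 81.2 in liver. Every gland library exceeded every liver library, and the mean was 11.3-fold the liver mean in parotid and 65.6-fold in sublingual. Cd24a, a surface glycoprotein, was 495, 516 and 1862 CPM in the glands and 27.1 in liver. Actg1, a cytoplasmic actin, Tmsb4x, which binds actin monomers, and Gsn, which severs filaments, had smallest ratios of 4.4, 4.56 and 11.4. Ppp1r1b, a regulated inhibitor of protein phosphatase, had means of 259 to 411 CPM in the glands and 13.4 in liver. Large smallest ratios were seen for Acss1, a mitochondrial acetate-activating enzyme, with 178 to 263 CPM against 5.02; for Gprc5b, an orphan receptor, with 69.2 to 81.9 against 2.14; for Rab15, a vesicle GTPase, with 96.8 to 188 against 3.12; and for Ildr1, a protein of tricellular junctions, with 51.3 to 64.4 against 1.77. Sidt1 and Nipal2 completed the 10 largest, with smallest ratios of 34.6 and 33.2.

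**Figure D2:**
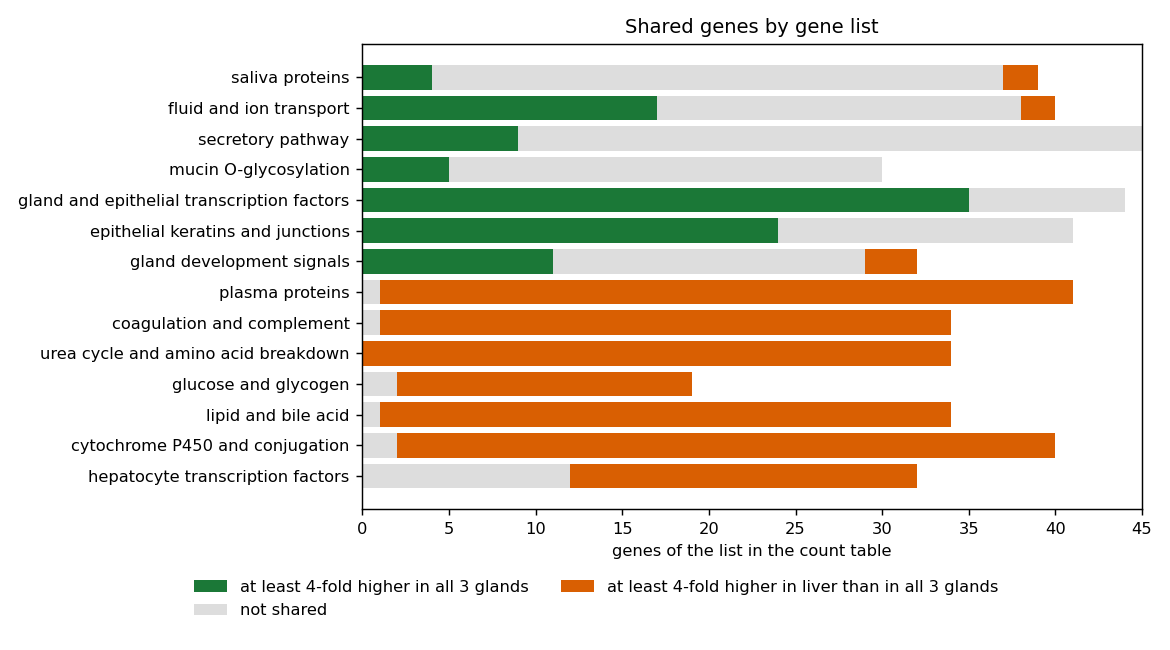
Number of genes in each of 14 lists (horizontal axis) that were at least 4-fold higher in all 3 glands (green), at least 4-fold higher in liver than in all 3 glands (orange) or neither (grey). The transcription factor list of glands and epithelia shows 35 green of 44, the urea cycle list 34 orange of 34, and the saliva protein list 4 green and 2 orange of 39. The lists were chosen with earlier results of these data known.

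Liver-high members were led by plasma proteins. Alb on chromosome 5, serum albumin, was 105, 379.5 and 712 CPM in parotid, 158, 379 and 876 in submandibular and 93.1, 266 and 433 in sublingual libraries, against 43170, 84690 and 111100 in liver. The lowest liver library, from CD1 female 2, was still 43170 CPM, and the highest gland library was 876 CPM. Next by liver mean were Apoe at 33850 CPM, Trf (transferrin) at 21990, C3 (the central complement protein) at 12930, Apoa1 at 12170 and Ahsg (fetuin A) at 10320; Serpina3k, Gc, Hp and Apoa2 had 9198, 7851, 7664 and 7232 CPM. Serpina3k belongs to a cluster of near copies and its own level is uncertain. Their smallest liver to gland ratios differed: Apoe and C3 had 28.1 and 28.2, both set by parotid, Hp had 69.2 and Trf 91.5, and Alb, Apoa1, Ahsg, Serpina3k, Gc and Apoa2 had 158 to 189.

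**Figure D3:**
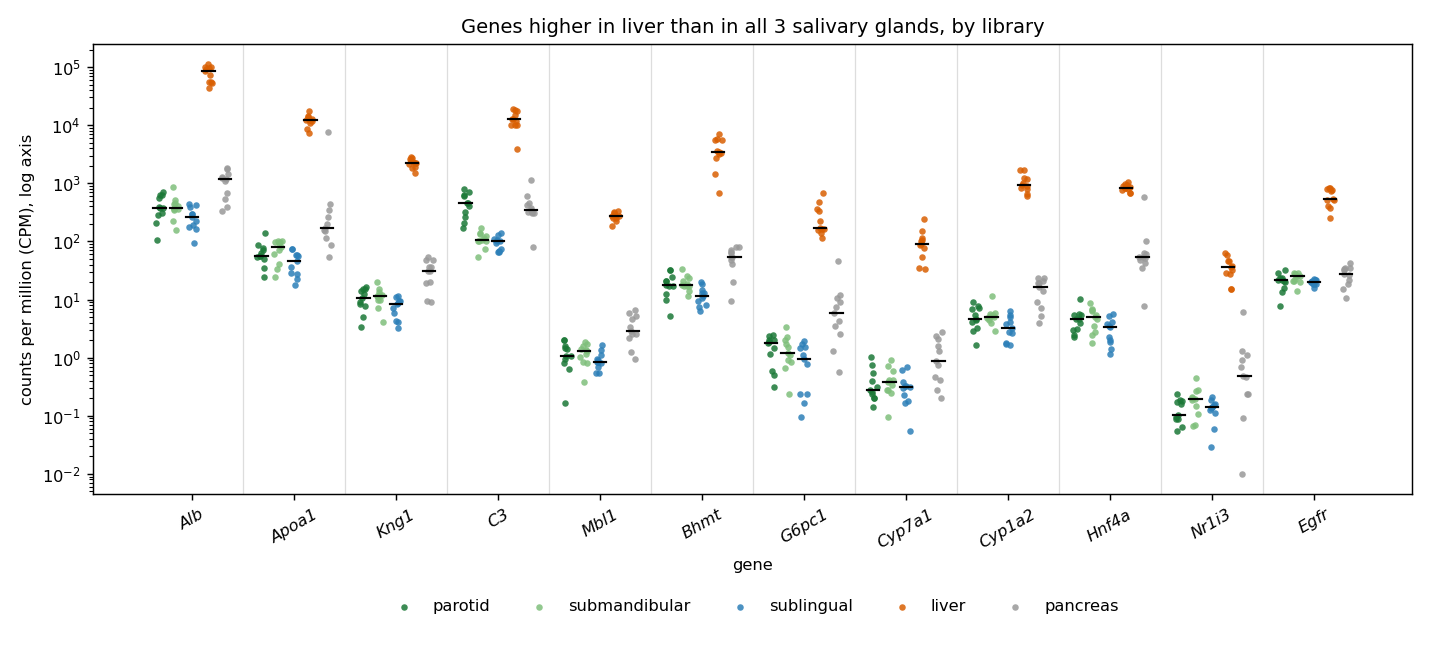
Levels of 12 liver-high members in each library, in CPM on a log axis, with 1 point per library, colours for the 5 tissues and a black bar at each median (11 libraries per tissue; values under 0.01 CPM are drawn at 0.01). Liver points of Alb lie between 43170 and 111100 CPM, above the gland points at 93.1 to 876 CPM, and the gland points of Egfr lie at 7.59 to 31.9 CPM against 249 to 828 CPM in liver.

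Most genes in 6 lists of hepatocyte function were liver-high. They were 40 of 41 plasma proteins, 33 of 34 genes of coagulation and complement, 34 of 34 of the urea cycle and amino acid breakdown, 17 of 19 of glucose and glycogen, 33 of 34 of lipid and bile acid metabolism and 38 of 40 cytochrome P450 and conjugation genes. No gene of these 6 lists was gland-high, and 8.41% of all genes tested were liver-high. Median log2 differences were -7.45, -7.38 and -8.08 for plasma proteins in parotid, submandibular and sublingual, and -5.25, -6.83 and -7.16 for glucose and glycogen. Agt, angiotensinogen, was the plasma protein outside the rule, because parotid (341 CPM) was within 4-fold of liver (989 CPM).

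Within these lists the genes with the largest ratios were enzymes and proteins known from hepatocytes. Cyp7a1 on chromosome 4, the rate-limiting enzyme of bile acid synthesis, was 0.144, 0.275 and 1.04 CPM in parotid, 0.0938, 0.383 and 0.896 in submandibular and 0.0552, 0.309 and 0.688 in sublingual libraries, against 33.5, 89.3 and 242 in liver; its smallest ratio of 236 was the largest of all liver-high members of at least 50 CPM. Kng1, kininogen, was 1529 to 2870 CPM in liver and at most 19.9 CPM in any gland library. Mbl1, a mannose-binding lectin of complement, was 186, 273 and 330 CPM in liver, with gland means of 0.931 to 1.22 CPM. Bhmt, a methyltransferase of methionine metabolism, was 669, 3495 and 6983 CPM in liver, with its lowest value in CD1 female 2, and 12.1 to 19.8 CPM in the gland means. G6pc1, which releases glucose, was 116, 170 and 680.2 CPM in liver and 0.926 to 1.5 in the glands. Cyp1a2, a drug-metabolising P450, was 614, 943 and 1699 CPM in liver and 3.49 to 5.41 in the glands. Each of these genes had liver and gland libraries without overlap.

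Other list members with large smallest ratios were Apoa5 (212) and Slco1b2 (208), which act in triglyceride control and bile acid uptake, Akr1d1 (193) of bile acid synthesis, Klkb1 (209), Mbl2 (204) and F13b (196) of coagulation and complement, and Agxt (193), Mat1a (189.5) and Prodh2 (188) of amino acid metabolism. Pklr of sugar metabolism had 172. Apoc4 and Hrg had 198 and 188. Ratios of this size lie close together: 98 liver-high members of at least 50 CPM were between 7.5 and 8 on the log2 scale. Their order was not tested. For Ugt3a2, Ugt2b1 and Cyp2c50 (205, 203 and 194) near copies in the same families leave the split of reads uncertain. Outside the lists, Inhbc (224), an inhibin subunit, Cfhr4 (216), Abcc6 (215), Ly6g2 (214), Sult2a8 (212) and Slc22a30 (210.3) were among the 10 largest. Clec4f (224), a lectin of Kupffer cells, was there too: of 11 macrophage and Kupffer cell markers 3 were liver-high, of 7 sinusoidal endothelium markers 4 and of 7 stellate cell markers 4, so the liver set was not made of hepatocyte genes alone.

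Hepatocyte transcription factors were shared less completely, for 20 of 32 genes, 62.5% of those tested. Hnf4a on chromosome 2, a nuclear receptor that maintains hepatocyte identity, was 2.3, 4.57 and 10.1 CPM in parotid, 1.81, 4.91 and 8.59 in submandibular and 1.17, 3.43 and 5.58 in sublingual libraries, against 668, 847 and 1067 in liver. Nr1i3, a nuclear receptor for foreign compounds, was 15.3, 36.3 and 64.5 CPM in liver and 0.13 to 0.197 in the gland means. Neither overlapped between liver and glands. Creb3l3 and Foxa3 had smallest ratios of 168 and 139.7. Cebpa, known from fat cells as well as hepatocytes, had a much smaller ratio of 6.87, set by parotid at 99.9 CPM. Foxa1 was not shared: it was 35.6 CPM in liver, 8.3 in parotid, 50.6 in submandibular and 189 in sublingual, with sublingual above liver.

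The sizes of the ratios differed between the sets. Among gland-high members of at least 50 CPM the smallest ratio had a median of 10.9 and a highest value of 41, and among liver-high members a median of 26.6 and a highest value of 236. The liver-high ratios had 2 groups: 135 of the 876 genes lay between 2 and 2.5 on the log2 scale, 30 between 5.5 and 6, and 159 between 7 and 7.5. The 120 liver-high members of at least 1000 CPM in liver were found in the glands at a median of 0.777% of the liver level in parotid, 0.666% in submandibular and 0.421% in sublingual, with lowest values of 0.416%, 0.472% and 0.31%. In the other direction, genes were taken with at least 1000 CPM in 1 gland and a level at least 20-fold above the other glands and liver. They were found in liver at a median of 0.833% of the parotid level (10 genes), 0.634% of the submandibular level (23 genes) and 1.06% of the sublingual level (2 genes). Cyp7a1, at 0.0552 to 1.04 CPM in the 33 gland libraries, was an example of such a low level. Whether these counts came from RNA made in the glands was not tested.

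**Figure D4:**
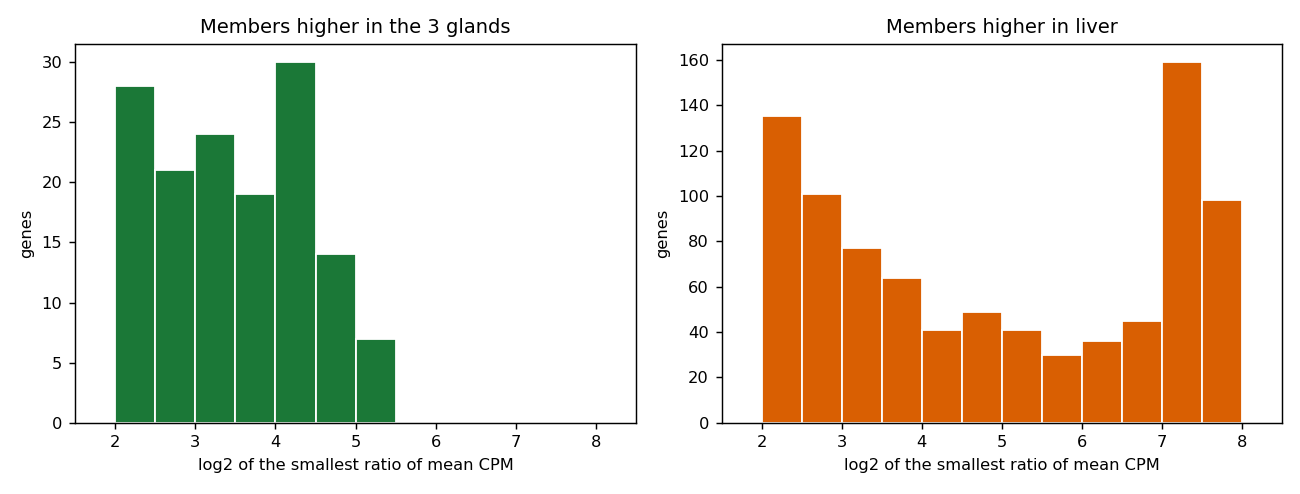
Number of members of at least 50 CPM in the higher tissue (vertical axis) by log2 of their smallest ratio of mean CPM (horizontal axis, in steps of 0.5), for 143 gland-high members (left) and 876 liver-high members (right). Gland-high ratios end below 5.5, while liver-high ratios form a low group near 2 and a second group with 159 genes between 7 and 7.5.

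Low gland levels were also compared between the sexes for genes that differ in liver, as a description. Only genes with a mean of at least 100 CPM in the liver of the higher sex were taken. For 8 genes at least 20-fold higher in female than in male liver, the glands of females held a median of 0.473% of the female liver level in parotid, 0.339% in submandibular and 0.176% in sublingual, and the glands of males 0.175%, 0.12% and 0.205%. Not all 8 were low in the glands of females: the highest values there were 43.1%, 45.7% and 41.1%, against 1.35%, 0.554% and 1.12% in males. For 8 genes at least 20-fold higher in male liver, the medians in parotid, submandibular and sublingual were 0.496%, 0.473% and 0.247% of the male liver level in males and 0.124%, 0.31% and 0.216% in females. In parotid and submandibular the higher median was in the sex whose liver was high, and in sublingual this held for the second group only. The library that was lowest also recurred across members. Among 876 liver-high members of at least 50 CPM, the submandibular library of CD1 male 1 was the lowest of the 11 for 358, and the liver library of CD1 female 2 the lowest liver library for 410. Among the 143 gland-high members, the parotid library of CD1 female 2 was the lowest parotid library for 109 and the liver library of C57 female 3 the lowest liver library for 70. The submandibular library of CD1 male 1 was the lowest submandibular library for 62 of them, so it recurred in both sets.

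Promoter sequence was examined because the rule used none. RefSeq promoter entries (build GRCm38.p6) were matched by symbol for 1532 gland-high members, 1162 liver-high members and 13692 of all genes tested, and the 250 bases before each gene start were read. Both strands were searched for 20 short motifs, after 1 duplicate was dropped, and the order given here was chosen after the counts were seen. The HNF1 core, a part of the palindrome bound by the HNF1 factors of hepatocytes that is shown in capitals in the sequences printed here, was in 28 liver-high promoters (2.41%), 2 gland-high promoters (0.131%) and 0.394% of all. The HNF4 form CAAAGTCCA was in 2.24% of liver-high, 0.261% of gland-high and 0.599% of all promoters, and CAAAGGTCA, a second form, in 1.29%, 0.196% and 0.467%. A forkhead motif TGTTTAC (FOXA) was in 5.25%, 3.39% and 3.07% and TATAAA, the TATA box, in 16.1%, 11.1% and 9.49% in the same order. The ETS motif CCGGAAGT was in 1.81% of liver-high and 1.63% of gland-high promoters and 5.45% of all. Both sets had fewer CpG-rich promoters: the median ratio of observed to expected CpG was 0.347 in liver-high, 0.462 in gland-high and 0.654 in all promoters, and median GC content was 52.8%, 57% and 58.4%.

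Other motifs searched were, in gland-high, liver-high and all promoters in that order: the full HNF1 palindrome, which contains the core, 0%, 0.0861% and 0.0073%; TTGCGCAA and TTGCACAA (C/EBP), 0.131%, 0.258% and 0.285%, and 1.24%, 1.89% and 0.906%; AACCGGTT (GRHL), 0.196%, 0.0861% and 0.19%; ERSE, the endoplasmic reticulum stress element, 0.131%, 0.0861% and 0.175%; TGACGTGG (UPRE, the unfolded protein response element), 0.979%, 0.602% and 0.862%; the CREB3L1 motif, which overlaps UPRE, 0.0653%, 0.258% and 0.0657%; ACAATGG (SOX), 3.07%, 3.36% and 2.45%; GCCNNNGGC (TFAP2), 21.1%, 17.3% and 21.7%; CCCGGAAGT (EHF, which overlaps ETS), 0.522%, 0.947% and 1.74%; TAATCC (PITX), 7.18%, 6.2% and 6.37%; the RFX motif, 0.457%, 0.43% and 0.416%; and the p63 motif, 0.522%, 0.775% and 0.416%.

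Promoters of 5 members described above are printed to show where such motifs stand, with the match in capitals, 250 bases before the start on the gene's strand, 5′ to 3′. Gc, F13b and Prodh2 hold the HNF1 core (on the gene strand in Gc and on the opposite strand in F13b and Prodh2), Bhmt the second HNF4 form, and Kdelr3, a gland-high member, the UPRE on the opposite strand. A match is a match of letters and shows no binding. Their RefSeq GRCm38.p6 positions are chr5:89457899-89458148 on the minus strand for Gc, chr1:139501457-139501706 on the plus strand for F13b, chr7:30493408-30493657 on the plus strand for Prodh2, chr13:93637759-93638008 on the minus strand for Bhmt and chr15:79516158-79516407 on the plus strand for Kdelr3.
Gc: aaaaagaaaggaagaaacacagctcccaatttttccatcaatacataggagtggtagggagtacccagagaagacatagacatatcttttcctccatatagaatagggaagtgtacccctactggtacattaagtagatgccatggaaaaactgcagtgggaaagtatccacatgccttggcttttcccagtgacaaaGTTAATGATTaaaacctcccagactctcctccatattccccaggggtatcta
F13b: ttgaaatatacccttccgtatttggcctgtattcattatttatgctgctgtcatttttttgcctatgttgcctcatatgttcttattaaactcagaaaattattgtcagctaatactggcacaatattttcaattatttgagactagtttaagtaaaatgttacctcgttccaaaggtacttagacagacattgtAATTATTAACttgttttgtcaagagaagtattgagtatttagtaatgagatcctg
Prodh2: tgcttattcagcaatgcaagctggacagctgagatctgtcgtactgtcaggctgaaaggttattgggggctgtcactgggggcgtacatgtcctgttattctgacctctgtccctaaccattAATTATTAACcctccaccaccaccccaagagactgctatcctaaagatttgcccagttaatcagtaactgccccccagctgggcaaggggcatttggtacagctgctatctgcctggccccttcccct
Bhmt: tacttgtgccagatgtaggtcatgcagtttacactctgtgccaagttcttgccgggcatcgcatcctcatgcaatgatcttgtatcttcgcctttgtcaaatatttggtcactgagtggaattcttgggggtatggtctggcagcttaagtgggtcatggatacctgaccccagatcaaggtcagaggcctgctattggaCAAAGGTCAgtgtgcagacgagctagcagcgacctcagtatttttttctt
Kdelr3: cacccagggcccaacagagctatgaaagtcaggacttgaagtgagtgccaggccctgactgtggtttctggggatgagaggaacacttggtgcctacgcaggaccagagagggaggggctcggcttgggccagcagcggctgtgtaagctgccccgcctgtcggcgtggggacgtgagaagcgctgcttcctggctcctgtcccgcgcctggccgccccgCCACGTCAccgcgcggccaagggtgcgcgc

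The members differed among themselves by gland. An F test over the 3 glands in the same fit, with an adjusted p under 0.05 and at least a 2-fold difference between the highest and the lowest gland mean, called 35.1% of all genes tested. It called 1271 of the 2216 gland-high members (57.4%) and 520 of the 1562 liver-high members (33.3%). Many genes that all 3 glands shared against liver were therefore not level among the glands. Of at least 50 CPM in every gland and furthest above the other glands in parotid were Col3a1, Col1a1 and Gsn. Col3a1, a fibrillar collagen, had means of 414, 203 and 205 CPM in parotid, submandibular and sublingual (adjusted p = 0.000309), and Gsn, the filament-severing protein, 729, 380.3 and 326 (adjusted p = 8.48e-06). Col1a1 and Col3a1 are themselves in the fibroblast marker list, whose sum ran higher in parotid (649 to 2010 CPM) than in submandibular (345 to 898) and sublingual (280 to 882); its part in the result was not tested.

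In submandibular Unc13b, Klk1 and Fxyd2 stood furthest above the other glands. Unc13b, which primes vesicles for release, was 104, 315 and 1057 CPM (lowest, median and highest) in submandibular, 11, 47 and 94.3 in parotid, 54.7, 62.4 and 78.9 in sublingual and 5.96, 9.69 and 15.1 in liver, with an adjusted p of 2.43e-12 among glands. No submandibular library of it overlapped with the other glands, and the range within submandibular was wide. Sublingual was highest for Wfdc18 (11.2-fold the lowest gland, adjusted p = 1.13e-14), Nupr1, a small stress-induced protein (12.9-fold, adjusted p = 9.12e-15), and Ccl28, a chemokine that attracts IgA-producing cells (7.88-fold, adjusted p = 2.07e-13). Ccl28 was 424, 551 and 664 CPM in sublingual and at most 178 CPM in the other glands. At the other end, Actg1 (adjusted p = 0.567), Galnt3 (0.439), Gprc5b (0.308), Ildr1 (0.398) and Pitx1 (0.0752) passed no threshold among glands, with highest to lowest mean ratios of 1.1, 1.21, 1.18, 1.25 and 1.41.

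Whether the difference from liver depended on sex was tested as an interaction (adjusted p under 0.05). The fit held the animal as a block, tissue, tissue by sex and tissue by strain. A positive value means that gland minus liver was higher in males. For parotid the interaction with sex was called for 0.264% of all genes tested, 2 gland-high members (0.0903%) and 22 liver-high members (1.41%). For submandibular the shares were 4.62% of all, 137 gland-high members (6.18%) and 97 liver-high members (6.21%), and for sublingual 0.345%, 3 (0.135%) and 35 (2.24%). The place of the sex difference varied. The change was larger in the gland for 123 of the 137 gland-high members called in submandibular and in liver for 14. It was larger in liver for 22 of 22 and 35 of 35 liver-high members called in parotid and sublingual. Of the 97 liver-high members called in submandibular, 40 changed more in the gland and 57 in liver. The 3 gland-high members called in sublingual changed more in liver. Members are low on 1 side by the rule, so these counts are descriptions only, and they were not made over all genes called. The counts over all genes moved with single animals: 859 calls in submandibular became 508 without C57 male 1 and 561 without CD1 female 3, and 64 in sublingual became 40 without C57 male 3. The 49 calls in parotid became 25 without C57 male 1 or C57 male 3, and 29 to 32 without C57 female 1, C57 female 3, CD1 female 1, CD1 female 3, CD1 male 1 or CD1 male 3.

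Nt5e, which makes adenosine outside cells, was 50.97 to 108 CPM in female liver and 5.997 to 20.9 CPM in male liver. No female liver overlapped with a male one. In males the mean was 12.4 CPM in liver and 8.89 CPM in sublingual, so Nt5e met the 4-fold rule through females. The interactions of Nt5e were 2.89 ± 0.29 (SE), 3.76 ± 0.30 and 3.03 ± 0.29 in log2 for parotid, submandibular and sublingual, with adjusted p (edgeR) of 1.01e-06, 1.95e-09 and 2.73e-07. Gstp1, a glutathione transferase, went the other way in liver, at 1728 to 2111 CPM in males but 151.6 to 459 CPM in females, against 24.6 to 48.1 CPM in all parotid libraries (interaction -2.64 ± 0.32, adjusted p = 2.53e-05). Slc22a26, a transporter of organic anions, was 118 to 220.4 CPM in female liver and at most 1.16 CPM in male liver (interaction for sublingual 9.36 ± 1.06, adjusted p = 6.57e-06); near copies of it exist. Male means of Slc22a26 were 0.553 CPM in liver and 0.43 CPM in sublingual, so it too met the rule through females. For such genes the rule itself favours a difference between the sexes, and the test is no independent evidence of one. Tmigd1, an adhesion protein, was the named case with the change in a gland: submandibular libraries of males held 3.29 to 13.3 CPM, those of females 30.9 to 139.7 CPM, and liver libraries held at most 1.09 CPM (interaction -3.76 ± 0.37, adjusted p = 9.05e-08).

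Strain dependence (positive where gland minus liver was higher in CD1) was called for 2.39% of all genes tested in parotid, 1.71% in submandibular and 2.14% in sublingual. Gland-high members gave 75 (3.38%), 41 (1.85%) and 53 (2.39%), and liver-high members 62 (3.97%), 53 (3.39%) and 71 (4.55%). Over all genes, 443 calls in parotid became 168 without C57 male 3 and 232 to 290 without CD1 female 3 or C57 female 1, 2 or 3. The 318 calls in submandibular became 156 without C57 male 3, 185 to 209 without C57 female 3, C57 male 1 or CD1 female 3, and 573 without CD1 female 2. The 398 calls in sublingual became 197 without C57 male 3 and 205 to 265 without C57 female 2, C57 female 3, C57 male 1 or CD1 female 3.

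Pctp on chromosome 11, which carries phosphatidylcholine between membranes, led in all 3 glands. C57 livers held 171.5 to 266.8 CPM and CD1 livers 3.19 to 5.27 CPM, a gap without overlap. In the glands of CD1 and C57 the means were 3.59 and 7.91 CPM in parotid, 3.71 and 5.48 in submandibular, and 12.01 and 23.8 in sublingual, so in CD1 sublingual was above liver and the gene was liver-high only through C57. The interactions were 4.61 ± 0.23, 5.04 ± 0.23 and 4.75 ± 0.23 in log2, with adjusted p of 4.83e-14, 8.21e-15 and 1.55e-14.

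Other named strain cases were of both kinds. Masp2, a protease of the lectin pathway of complement, was lower in CD1 liver, at 100.8 to 187.8 CPM, than in C57 liver, at 208.3 to 230.8 CPM, and higher in CD1 glands: submandibular libraries held 4.34 to 7.22 CPM in CD1 and 1.03 to 1.73 in C57, and sublingual libraries 3.47 to 7.51 and 0.516 to 1.41. The strains did not overlap in any of these tissues. The interactions of Masp2 were 2.42 ± 0.30 (adjusted p = 2.01e-05) and 2.67 ± 0.29 (adjusted p = 2.41e-06). Cyp46a1, a cholesterol hydroxylase, was 20.2 to 110.6 CPM in CD1 liver and 2.55 to 4.95 CPM in C57 liver, and its submandibular mean was 4.44 CPM for CD1 against 9.35 CPM for C57. In C57 the gland was thus above liver, and Cyp46a1 met the rule through CD1 (submandibular interaction -4.93 ± 0.68, adjusted p = 7.23e-05). Habp4 was 39.4 to 65.4 CPM in CD1 liver and 105.2 to 116.6 CPM in C57 liver, against 10.95 to 21.1 CPM in parotid, and its CD1 means of 54.5 CPM in liver and 18.2 CPM in parotid were less than 4-fold apart (interaction 1.46 ± 0.15, adjusted p = 9.18e-07). D17H6S56E-5, a gland-high member, was high in C57 glands, at 20.8 to 117 CPM in C57 parotid and 3.04 to 6.73 CPM in CD1 parotid, and at 30.3 to 78.1 against 2.62 to 3.92 CPM in sublingual. Liver held at most 2.98 CPM of it in either strain (interactions -3.17 ± 0.40 and -3.47 ± 0.41, adjusted p = 3.01e-05 and 5.84e-06), and its CD1 means of 4.75 CPM in parotid and 2.08 CPM in liver were also less than 4-fold apart. Pctp, Cyp46a1, Habp4 and D17H6S56E-5 met the rule through 1 strain, so their interactions are no independent evidence of a strain difference.

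**Figure D5:**
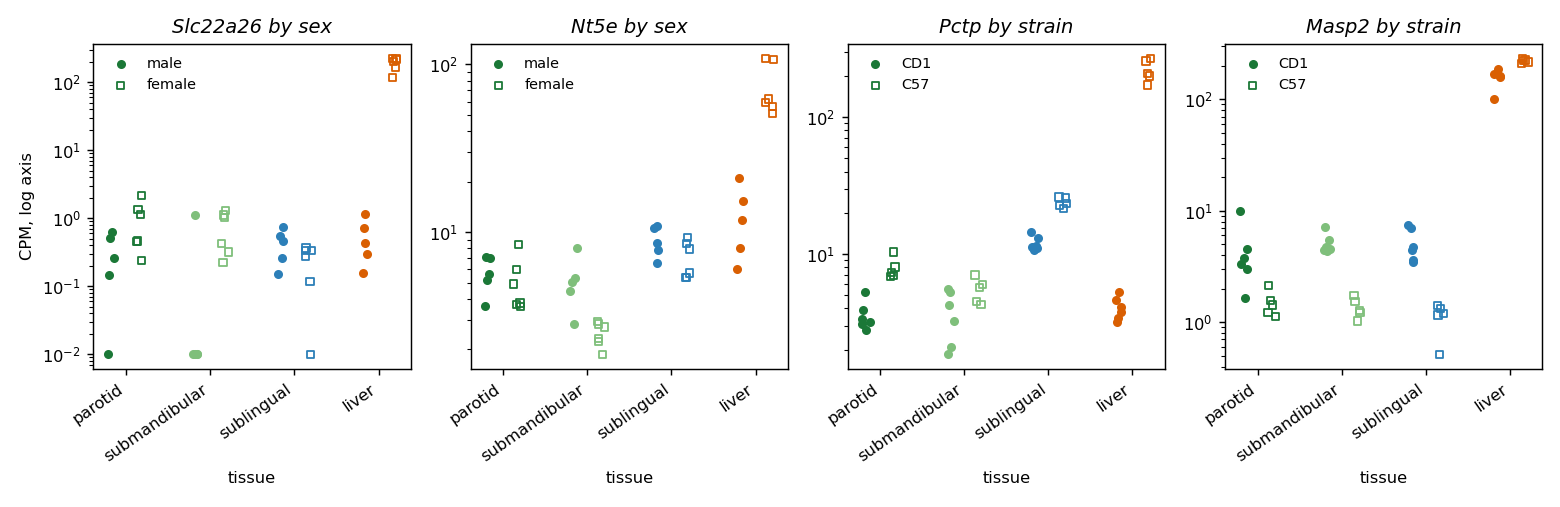
Levels of Slc22a26 and Nt5e by sex and of Pctp and Masp2 by strain in each library of parotid, submandibular, sublingual and liver, in CPM on a log axis (filled circles for males or CD1, open squares for females or C57; values under 0.01 CPM are drawn at 0.01). Slc22a26 in male liver lies at 0.158 to 1.16 CPM, below every female liver at 118 to 220.4 CPM, and Pctp in CD1 liver lies at 3.19 to 5.27 CPM, below every C57 liver.

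Subsets of the animals were examined by a check added after the data were seen; it uses the same libraries as the rule, so most members had to pass, and it supports nothing. When means were taken over males, females, CD1 or C57 animals alone, 1929, 1994, 1862 and 2044 of the 2216 gland-high members still passed 4-fold in all 3 glands, and 1528 (69%) did so in all 4 subsets. For liver-high members the counts were 1456, 1503, 1468 and 1452 of 1562, and 1306 (83.6%) in all 4. Of the 143 gland-high members of at least 50 CPM 132 passed in all 4, and of the 876 liver-high ones 785. Animal by animal, with the same reuse of libraries, 390 gland-high and 915 liver-high members passed 4-fold in every gland of 11 of 11 animals, among them 69 of the 143 and 594 of the 876. CD1 female 2 passed for 55.6% of gland-high and 80.2% of liver-high members, and the 10 other animals for 67.1% to 80.7% and 84.8% to 91.9%.

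C57 male 2 had no part in choosing the members, with 1 library per tissue and no test. Its sublingual library stood apart, with 13460 CPM of Egf and 307.1 CPM of Unc13b, where the 11 other sublingual libraries held 194.3 to 433.8 and 54.7 to 78.9 CPM. In these libraries 1761 of the 2216 gland-high members (79.5%) were at least 4-fold higher in each gland than in liver, where 15.2% of all genes tested were. Of the 1562 liver-high members 1402 (89.8%) were at least 4-fold higher in liver, against 8.8% of all genes tested. Without the sublingual library the counts were 1790 (80.8%, against 16% of all) and 1418 (90.8%, against 9.66%). Of the 143 gland-high members of at least 50 CPM 138 passed, while the share among all genes of that level was not counted. The exceptions, named here because they fell short, included Ehd4, Prkcd, Tmsb4x and Txnip, with lowest gland levels of 49.9, 51.4, 364 and 173 CPM against liver levels of 15.4, 14, 108 and 54.5 CPM. The fifth is on chromosome 18, where the naming rule names no gene.

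Pancreas, another gland that secretes enzymes and fluid, was set against the mean of the 3 salivary glands in a separate fit with the animal as a block (44 libraries of the same 11 animals; 18322 genes tested; adjusted p under 0.05 and at least 4-fold). The salivary libraries are those that the rule used, so the members' high gland levels enter this comparison too. Of all genes tested 4.8% were called higher in the salivary glands and 4.34% higher in pancreas. Of 2253 gland-high members tested, 599 (26.6%) were higher in the salivary glands and 57 (2.53%) higher in pancreas, so most members were not called either way. Of 1251 liver-high members tested, 1 was higher in the salivary glands and 246 (19.7%) higher in pancreas. In pancreas CD1 female 2 and CD1 female 3 stood apart, with 9.64 and 63.2 CPM of the acinar factor Bhlha15 where the 9 others held 382.9 to 749 CPM. Without both animals the calls over all genes numbered 2054 in place of 1674.

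The salivary side of this comparison held transcription factors and transport genes. Of 42 gland and epithelial transcription factors tested 22 were higher in the salivary glands and none in pancreas, and of 39 transport genes 16 and none. Pitx1 had 2.03, 11.2 and 17.3 CPM (lowest, median and highest) in pancreas, and the salivary mean was higher by 4.07 ± 0.30 (SE) in log2 (adjusted p = 2.88e-13). Fxyd2 and Aqp5 were higher by 4.11 ± 0.29 and 4.10 ± 0.34, with adjusted p of 6.56e-14 and 4.88e-12. Rab15 and Fads2b, a gene of the fatty acid desaturase family, were higher by 3.87 ± 0.27 and 3.97 ± 0.43 (adjusted p = 3.67e-14 and 1.81e-09). Secretory pathway genes were not separated in this way: none of 44 was higher in the salivary glands and 2 were higher in pancreas. Bhlha15 differed by -0.49 ± 0.29 (adjusted p = 0.163), at 495 ± 250.5 CPM in pancreas (SD, n = 11), including the 2 libraries that stood apart.

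The gland-high members with the smallest ratios of their lowest gland mean to the pancreas mean had negative differences that passed the adjusted p but not the 4-fold part of the call. Nupr1 had a pancreas mean of 1942 ± 1371 CPM (SD, n = 11) and a log2 difference of -1.71 ± 0.34 (adjusted p = 7.88e-05), and Klk1 12950 ± 6712 CPM and -1.78 ± 0.38 (adjusted p = 0.000173). Klk1 was 78.1 CPM in pancreas CD1 female 2 and 1046 CPM in CD1 female 3, against 11030 to 18340 CPM in the other pancreas libraries. Phgdh, the first enzyme of serine synthesis, was 84.5 to 139 CPM in the salivary glands, 3.26 in liver and 375 ± 164 in pancreas (difference -1.82 ± 0.24, adjusted p = 1.4e-07). Slc41a1, a magnesium transporter, and Rap1gap, which switches off Rap1, differed by -1.71 ± 0.23 and -1.06 ± 0.29 (adjusted p = 8.74e-08 and 0.00233). These 5 were taken from members of at least 50 CPM in every gland, and none of them is among the 57 called higher in pancreas. Their values include both pancreas libraries that stood apart, and their calls without those libraries were not examined.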

How the data were processed

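Poly(A)-selected RNA of 3 salivary glands, pancreas and liver was sequenced, and the authors deposited 1 table of whole-number read counts per gene. Per the submitters' processing notes, Trim Galore, HISAT2 and featureCounts were used with GRCm39 (mm39); versions and settings, including strand, are not given in the sources used here. Groups were read from the sample labels. Totals were 29.9 to 66.6 M counts per library. Among counts of 1 to 20 over the whole series, even values outnumbered odd ones (269114 against 160278). The reason was not tested.

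From the counts, CPM was computed in edgeR (4.0.16, R 4.3.3, limma 3.58.1) with TMM factors from 44 libraries; a filter by tissue with a minimum count of 10 (filterByExpr) left 18574 genes. Tests were edgeR quasi-likelihood tests with Benjamini-Hochberg adjustment and a replicate block for the animal, which each library label names. Deviations of libraries of 1 animal from their group means correlated with a median of 0.0957 (-0.171 to 0.414). Nothing in the labels says how animals were housed or processed. The scripts were tested on simulated data.

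Named genes were the members with the highest levels, the largest ratios (at least 50 CPM), up to 4 per list, those nearest the threshold, and those with the smallest p or largest gland or pancreas ratio; not every gene the rule selects is reported. Genes named as examples outside these, such as Ano1, Chrm3, Itpr3, Ehf, Spdef, Pax9, Sox10, Hspa5, Muc19 and Egf, were chosen after their values were seen. The members and lists were chosen with earlier results of these data known. DESeq2 (1.42.0), other scalings and filters, and leaving out each animal were alternatives. Chromosomes of genes are those of the deposited table; promoters came from a RefSeq table of GRCm38.p6, matched by symbol. Some genes the rule selects and 1 motif are not reported here.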

Additional observations from a re-analysis of the deposited data

Results flagged for a closer look

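For 15 combinations of a named member, a gland and sex or strain, the difference from liver itself differed between the groups by the interaction test of the edgeR fit (adjusted p under 0.05). Values are log2, males minus females or CD1 minus C57, of the difference gland minus liver, with their SE. They were among the members with the smallest p per comparison, so their sizes are not typical of the set. Nt5e, Slc22a26, Pctp, Habp4, Cyp46a1 and D17H6S56E-5 met the rule of membership through 1 sex or strain only, which favours such a difference.

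By sex, Nt5e, which makes adenosine, differed by 2.89 ± 0.29 in parotid, 3.76 ± 0.30 in submandibular and 3.03 ± 0.29 in sublingual, with higher liver levels in females. Slc22a26, the transporter, differed by 9.36 ± 1.06 in sublingual. Gstp1, the glutathione transferase, differed by -2.64 ± 0.32 in parotid, with higher liver levels in males. Tmigd1, the adhesion protein, differed by -3.76 ± 0.37 in submandibular, with higher gland levels in females. The 3 gland values of 1 gene share the liver libraries.

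By strain, Pctp, the phosphatidylcholine carrier, differed by 4.61 ± 0.23 in parotid, 5.04 ± 0.23 in submandibular and 4.75 ± 0.23 in sublingual, with liver levels of C57 far above those of CD1. Habp4 differed by 1.46 ± 0.15 in parotid. Masp2, the complement protease, differed by 2.42 ± 0.30 in submandibular and 2.67 ± 0.29 in sublingual. Cyp46a1, the cholesterol hydroxylase, differed by -4.93 ± 0.68 in submandibular. D17H6S56E-5 differed by -3.17 ± 0.40 in parotid and -3.47 ± 0.41 in sublingual, with higher gland levels in C57.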

How the results depend on the processing

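Of the counts over all genes, 177 alternative values stayed within 1.5 times the value in the report and 39 moved further. The shared sets were 2216 and 1562 genes (gland-high and liver-high) with the filter on low counts, and 782 and 1354 with means of log2(CPM + 0.5); leaving out 1 animal gave 4771 to 5217 and 2543 to 2703. Without the filter, calls numbered 9003 in parotid (5827 with it) and 2772 against pancreas (1674 with it). With DESeq2, sex dependence was called for 112 genes in parotid and 123 in sublingual, and strain dependence for 879 in parotid, 625 in submandibular and 759 in sublingual. With C57 male 2 included, strain dependence was called for 711 genes in parotid and 604 in sublingual. Leaving out 1 animal gave 25 to 73, 508 to 1139 and 40 to 71 calls of sex dependence in parotid, submandibular and sublingual, and 168 to 506, 156 to 573 and 197 to 491 of strain dependence. For the differences from liver it gave 5730 to 5945, 5134 to 5272 and 5428 to 5566 calls in parotid, submandibular and sublingual, among glands 6276 to 6750, and against pancreas 1653 to 1866.

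Without the replicate block the counts were 5872, 5222 and 5468 for the differences from liver, 6573 among glands, 1904 against pancreas, 50, 795 and 57 for sex and 459, 281 and 369 for strain, each within 1.5 times. The 15 sex and strain differences of named genes given in the report kept their direction and their call in 16 of 16 alternatives each, the largest adjusted p being 0.00109 for Cyp46a1 in submandibular.

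Named genes were followed by the log2 of their smallest ratio rather than by 3 fitted values. Of 106 genes none reversed, and 9 fell below 4-fold with means of log2(CPM + 0.5), among them Chchd10, Edar, Erg28, Fut2, Gcnt1, Rab26, Slc26a4 and Uaca. Without TMM scaling the median log2 difference of all genes tested moved by 0.15, 0.30 and 0.87 in parotid, submandibular and sublingual. In checks chosen after seeing the data, list counts without TMM scaling changed by at most 2, for example to 19 gland-high transport genes and 36 transcription factors, and to 2 liver-high sinusoidal endothelium markers; without CD1 female 2 they changed to 3 gland-high saliva proteins and 5 liver-high sinusoidal markers only. Low counts limit the 2962 gland-high and 1004 liver-high members under the filter, which were not tested, and near copies and unknown strand handling limit single genes of large families. The labels name separate animals but no batch, so a batch could not be examined.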
